A study of Mus musculus with 6 samples.

Results

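Chromosome 10 of the mouse was followed from its first to its last measured gene in 3 clonal B cell lines, because it is an autosome on which the maternal and paternal alleles were counted in unequal amounts in one of them, Abl.2. The members were selected on position and counts: the genes of chromosome 10 with at least 20 allelic counts, both alleles together, in each of 6 libraries. This held for 431 of 908 genes listed on the chromosome and made up 431 of the 8702 genes tested over the whole series. Of the other 477 genes, 239 had no allelic count in any library, 39 reached the minimum in both libraries of Abl.2 but not everywhere, and 5 reached it in Abl.3 and Abl.4 but not in Abl.2. By start position, from 3740364 to 130322870 (GRCm38), the members were placed in windows of 10 Mb.

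The lines are immortalised B cells of F1 mice from 129S1/SvImJ and CAST/EiJ parents. Per the labels Abl.3 is male and the other lines are female. Each line is 1 clone, so what belongs to a line and what belongs to its clone cannot be told apart. All received the solvent control, 1% DMSO in the medium, and live cells were taken from a density gradient on day 2. Each line had 2 library preparation replicates, made with a full-length cDNA kit, and every p-value below measures the spread between such libraries. The series concerns the mechanism of monoallelic expression and DNA methylation as a setter of allelic levels, and the comparisons here are those between clones.

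In an F1 animal each autosomal gene is present as one maternal and one paternal copy that differ at many single bases, so reads over those bases can be assigned to a parent. Most autosomal genes draw on both copies about equally, while some genes, among them imprinted and randomly monoallelic ones, use mainly one. When the number of copies of a whole chromosome changes, the RNA of most of its genes tends to move with the number of templates, and individual genes can depart from that through feedback or through their own regulators.

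The maternal share is the maternal count over the count of both alleles. A gene with 1 maternal and 2 paternal counts has a share of 0.333, and a total that is 1.5-fold that of a gene with 1 of each (0.58 on the log2 scale). These values are given below as arithmetic references, since the DNA copy number was not measured. The chromosome itself was chosen by the maternal share and abundance of Abl.2 against the other lines, so values of that contrast are a description without a test.

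The promoters of 4 members are shown because their genes stand at the corners of the profile. Tnfaip3 was the highest above the chromosome, Vpreb3 had the most allelic counts among the genes of its window and a total near that of the other lines, D10Jhu81e (Gatd3a in RefSeq) was almost wholly maternal in Abl.2, and Calhm6 almost wholly paternal there. The sequences are from RefSeq on GRCm38.p6 and run 5′ to 3′ on the gene's strand from 250 bases before to 50 bases after the start. Tnfaip3 is at chr10:19015361-19015660 (minus strand), Calhm6 at chr10:34127923-34128222 (minus strand), Vpreb3 at chr10:75948050-75948349 (plus strand), and D10Jhu81e at chr10:78169706-78170005 (minus strand). The RefSeq start of Vpreb3 lies 5243 bases from the start in the authors' table. That of Tnfaip3, for which 2 promoters are listed, lies 247 bases from its annotated start, so nearly all of the stretch shown is within the annotated gene. Capitals mark the CpG dinucleotide, CG, which is the site of DNA methylation in mammals.
Tnfaip3: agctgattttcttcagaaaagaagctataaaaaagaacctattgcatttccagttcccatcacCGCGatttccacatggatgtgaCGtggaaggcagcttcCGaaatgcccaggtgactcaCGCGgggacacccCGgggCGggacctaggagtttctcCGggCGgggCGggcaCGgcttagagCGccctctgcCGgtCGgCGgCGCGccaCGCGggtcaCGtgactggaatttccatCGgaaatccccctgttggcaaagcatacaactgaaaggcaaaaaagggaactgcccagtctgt
Calhm6: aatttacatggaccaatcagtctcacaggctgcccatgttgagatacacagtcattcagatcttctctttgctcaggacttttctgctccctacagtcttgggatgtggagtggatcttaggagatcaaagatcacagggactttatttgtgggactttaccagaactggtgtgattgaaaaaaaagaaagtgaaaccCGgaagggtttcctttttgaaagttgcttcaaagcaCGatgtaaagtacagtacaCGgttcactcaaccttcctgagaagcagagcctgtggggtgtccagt
Vpreb3: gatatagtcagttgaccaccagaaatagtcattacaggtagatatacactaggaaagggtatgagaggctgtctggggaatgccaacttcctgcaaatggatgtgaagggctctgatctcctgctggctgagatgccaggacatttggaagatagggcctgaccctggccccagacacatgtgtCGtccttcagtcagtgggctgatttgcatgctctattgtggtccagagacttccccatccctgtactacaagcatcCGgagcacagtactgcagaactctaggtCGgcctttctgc
D10Jhu81e: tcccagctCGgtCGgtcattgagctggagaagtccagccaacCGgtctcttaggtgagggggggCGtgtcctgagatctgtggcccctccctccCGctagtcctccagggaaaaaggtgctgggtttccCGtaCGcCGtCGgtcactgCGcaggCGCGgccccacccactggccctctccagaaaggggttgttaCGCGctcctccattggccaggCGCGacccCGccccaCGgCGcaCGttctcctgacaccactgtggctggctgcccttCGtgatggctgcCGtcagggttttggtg

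The promoters of Tnfaip3 and D10Jhu81e held 22 CG each, a number reached by 23.1% of the 32851 RefSeq promoters of this length. Those of Calhm6 and Vpreb3 held 3 each, a number reached by 76.7%. At least 1 CG was in 94.6% of all promoters, with a median of 7. Of the members, 372 were matched to a promoter, and their median was 24. TATAAA, read on both strands, matched in the promoter of Tnfaip3, in 7.80% of matched members and in 13.6% of all promoters. Methylation was not measured in these libraries.

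Total allelic counts ranged from 18362319 to 26881211 per library and those of the members from 1010145 to 2001125, with a median of 1002 to 2170 per member. TPM, which express a transcript's abundance per length and relative to its library, keep no depth, so that of the abundance table is unknown. Of the members, 427 were protein-coding and 235 overlapped another annotated gene. All 10 B lineage markers were at 1 TPM or more in every library, with a sum between 12605 and 14003 TPM. Markers of T cells summed to at most 0.07 TPM, of erythroid cells to at most 0.69 and of fibroblasts or stroma to at most 0.03. Among 2 natural killer markers, Ncr1 was at 0 and Klrb1c brought the sum to 15.1 TPM (Abl.2), 0.91 (Abl.3) and 6.16 (Abl.4). Among 4 myeloid markers, Lyz2 made up most of a sum of 176 TPM (Abl.2), 86.1 (Abl.3) and 83.7 (Abl.4). Itgam, another of the 4, went the other way, at 0.51 and 0.35 TPM in Abl.2, 0.72 and 0.97 in Abl.3, and 6.89 and 6.74 in Abl.4. Both sums were highest in Abl.2, and the part of these markers in the results was not tested. In such bulk RNA, fewer cells that express a gene and less RNA per cell cannot be told apart.

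Over the whole chromosome, the maternal share was 0.3437 and 0.3439 in the libraries of Abl.2, 0.5035 and 0.5043 in those of Abl.3, and 0.5038 and 0.5035 in those of Abl.4. The 17 autosomes other than 4 and 10 ranged from 0.484 to 0.530 in Abl.2. Across the 13 windows with at least 5 members it ran from 0.307 ± 0.00062 (50 to 60 Mb) to 0.369 ± 0.00067 (70 to 80 Mb; SD, n = 2). In Abl.3 the same windows ran from 0.461 (50 to 60 Mb) to 0.586 (40 to 50 Mb), and in Abl.4 from 0.456 (10 to 20 Mb) to 0.555 (40 to 50 Mb). None of these windows of Abl.2 reached a window of the other lines.

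**Figure D1:**
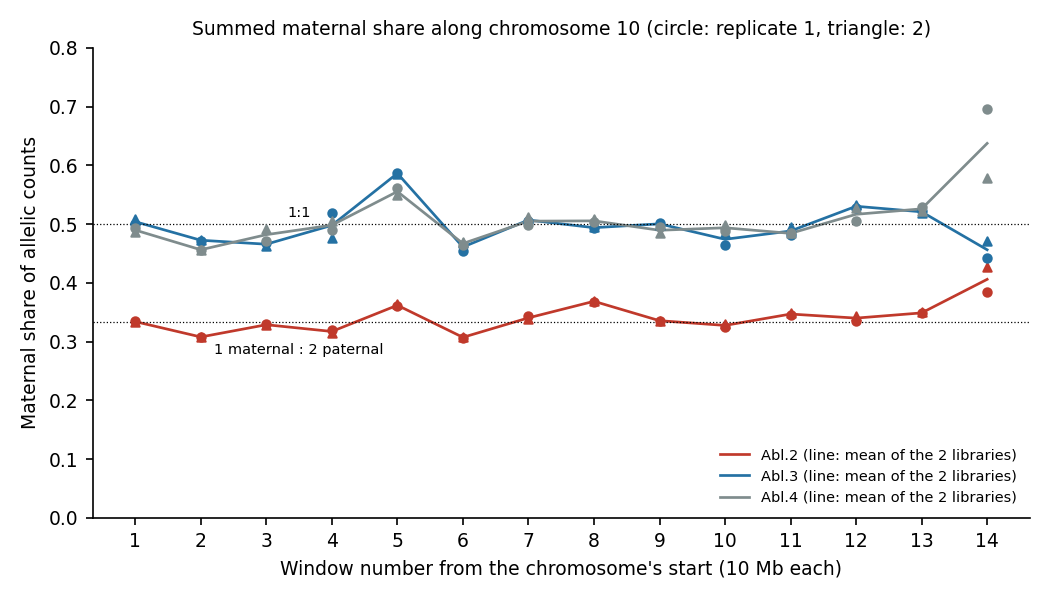
Summed maternal share of allelic counts (y axis) in consecutive 10-Mb windows of chromosome 10 (x axis, counted from the start), with each library as a point and the mean of a line's 2 libraries as a line; dotted lines mark shares of 0.5 and 0.333. Abl.2 stays between 0.307 and 0.369 in the 13 windows with at least 5 members, below every library of Abl.3 and Abl.4, while the last window holds a single gene, Tespa1.

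The window from 40 to 50 Mb was the high point of Abl.3 and Abl.4. Its share was 0.587 and 0.586 in Abl.3, 0.561 and 0.550 in Abl.4, and 0.360 and 0.363 in Abl.2. Set against the other lines by the log2 ratio of maternal to paternal counts, its value was -1.23, and that of the window from 70 to 80 Mb was -0.77. Cd24a, a surface glycoprotein of developing B cells, carried 29.6% of the counts of the window from 40 to 50 Mb. Without it the share of Abl.2 there was 0.391, and the paternal difference exceeded the maternal one by 1.09, against 1.16 in the first 10 Mb and 1.12 from 110 to 120 Mb, each without its gene of most counts. Tespa1, the only member beyond 130 Mb, was at 0.385 and 0.427 in Abl.2, 0.441 and 0.471 in Abl.3, and 0.696 and 0.579 in Abl.4. At 138 to 314 counts per library, the 95% Wilson intervals of Abl.2 (0.320 to 0.454 and 0.373 to 0.482) overlapped those of Abl.3 (0.363 to 0.523 and 0.390 to 0.554). Those of Abl.4 (0.633 to 0.752 and 0.516 to 0.639) lay above those of Abl.2.

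The members with the most counts in their windows showed how the share moved in single genes. Sf3b5, a small subunit of the splicing factor SF3b, had mean shares of 0.341, 0.499 and 0.497 in the order Abl.2, Abl.3, Abl.4 (2 libraries each). Hdac2, a histone deacetylase, was at 0.291, 0.472 and 0.477 in the same order. Psap, the precursor of the lysosomal saposins, was at 0.294, 0.465 and 0.459. These 3 genes kept a similar distance between Abl.2 and the others while starting from different levels. Anapc16, a subunit of the anaphase-promoting complex, was at 0.251, 0.405 and 0.418, so its low share in Abl.2 went with a share under 0.5 in the other lines. Eef2, the translation elongation factor that moves the ribosome along, was at 0.330, 0.504 and 0.495. Socs2, an inhibitor of cytokine signalling, was paternal in every line, at 0.228, 0.244 and 0.346.

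Taken gene by gene, Abl.2 had a median share of 0.337 (interquartile range 0.302 to 0.381), and the other lines had medians of 0.503 and 0.504. In Abl.2, 318 members (73.8%) lay between 0.25 and 0.42, against 42 (9.74%) in Abl.3 and 49 (11.4%) in Abl.4. Both libraries of Abl.2 were below all 4 others in 370 members, where 14.7% of all 8702 genes did the same, and above them in 8, where 17.5% did. The ranges overlapped in 53. The 8702 genes include the members themselves, genes of the X chromosome, and 554 genes of chromosome 4, whose share in Abl.2 was 0.995. The rule used this contrast, so nothing is read from these counts. At the count minimum, Sirt1, Gm21781 and Gstt2 were the members just inside, with 20 or 21 counts in their lowest library and shares in Abl.2 of 0.316, 0.347 and 0.810. Just outside, with 18 or 19 counts, were Avil, BC025920 and A930033H14Rik, with shares of 0.418, 0.341 and 0.596.

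Abundance was higher in Abl.2 over most of the chromosome. The shift is the mean log2(TPM + 1) of Abl.2 less the mean of Abl.3 and Abl.4, relative to the median of the other autosomes, which was 0.02 before this centring. Of the 431 members, 10 could not be matched to the abundance table by gene ID and 12 had a mean below 1 TPM. Over the other 409 the median shift was 0.54, a 1.45-fold higher level, with an interquartile range of 0.26 to 0.76. On the 17 autosomes other than 4 and 10 the medians were between -0.03 and 0.07. Medians of the 13 windows with at least 5 members ran from 0.41 ± 0.06 (60 to 70 Mb, 1.33-fold) to 0.68 ± 0.05 (80 to 90 Mb, 1.60-fold; SD between the libraries of Abl.2, n = 2). Against Abl.4 alone the lowest window median was 0.22. Against both lines, the windows from 10 to 30 Mb and from 80 to 90 Mb were the highest, at 0.68, 0.63 and 0.68. Tespa1, alone beyond 130 Mb, had a shift of 0.07, with -0.09 and 0.22 in the libraries of Abl.2. The shift was above 0 in 368 members and below 0 in 41. Both libraries of Abl.2 were above all 4 others in 296 of 409 members, against 21.8% of 11003 genes, and below them in 17, against 17.7%. As above, nothing is read from these counts.

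**Figure D2:**
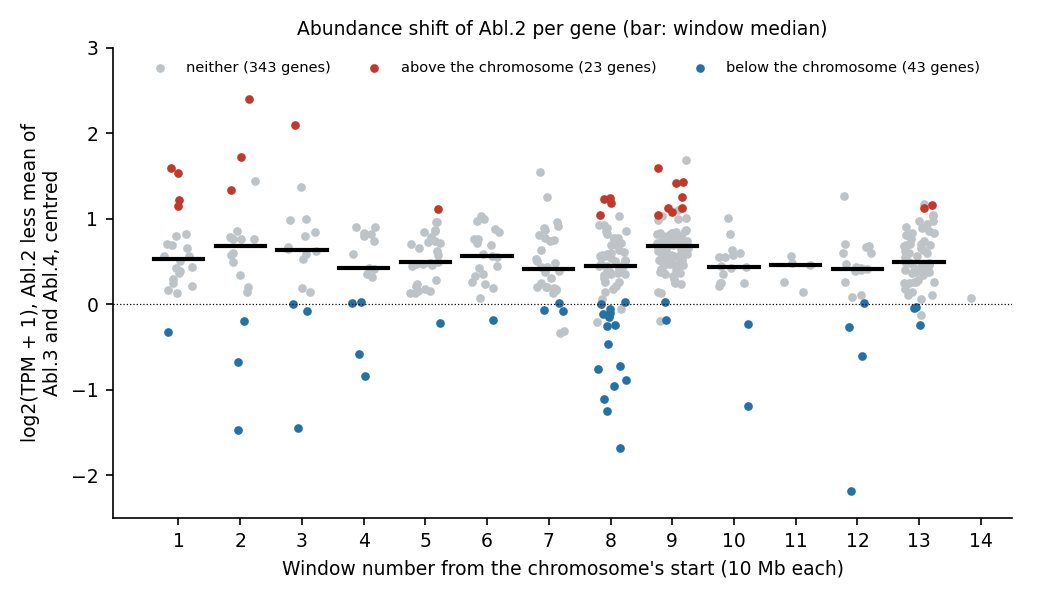
Abundance shift of Abl.2 against the mean of Abl.3 and Abl.4 on the log2(TPM + 1) scale (y axis) for each of 409 members by 10-Mb window (x axis), with the median of each of the 13 windows with at least 5 members as a bar. The bars lie between 0.41 and 0.68, the 23 members in red lie above the chromosome's median by the rule in the text, and the 43 in blue lie below it, 16 of them in window 8.

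The counts of each allele were also taken alone, scaled to the library's counts on the other autosomes. Across members the maternal output of Abl.2 differed from the mean of the other lines by a median of -0.03 on the log2 scale (interquartile range -0.33 to 0.25), and the paternal output by 0.98 (0.70 to 1.23). On the other autosomes these medians were -0.00087 and -0.014. Along the chromosome, summed paternal output ran from 0.53 (70 to 80 Mb) to 1.27 (first 10 Mb), and maternal output from -0.25 to 0.29 in the same windows. In every window of the 13, the paternal difference exceeded the maternal one by at least 0.77. Single genes weighed on both ends. Akap12, a scaffold for kinases, held 36.4% of the counts of the first 10 Mb, and without it the paternal value was 0.94 and the maternal -0.22. Vpreb3 held 18.8% of the counts from 70 to 80 Mb, and without it the values were 0.63 and -0.14.

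**Figure D3:**
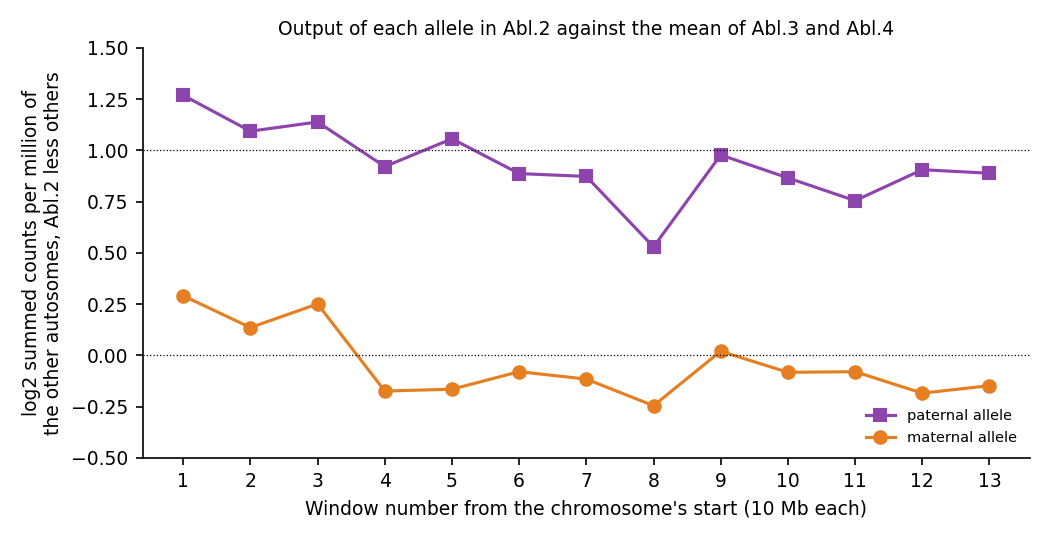
Log2 difference in summed, library-scaled counts between Abl.2 and the mean of Abl.3 and Abl.4 (y axis) for the maternal and the paternal allele in the 13 windows with at least 5 members (x axis, 10 Mb each). The paternal line runs from 0.53 to 1.27 and the maternal line from -0.25 to 0.29, with the lowest point of both in window 8 and the highest of both in window 1.

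Members whose abundance did not follow the chromosome were those more than 0.5 on the log2 scale from its median shift, with both libraries of Abl.2 outside the range of the other 4 after the median had been taken off. By this rule 23 of 409 members (5.62%) lay above, where 7.87% of genes on the other autosomes lay that far above their own median. Below it lay 43 (10.5%), where 10.5% of the other autosomes' genes did. Within 0.5 of the median were 328 members, or 80.2%, against 77.1%. Those 9300 genes of the other autosomes passed the minimum of 1 TPM alone, while members also had at least 20 allelic counts in each library. Against this unlike set, the share of members apart from the chromosome was near that of the other genes around their median. When the same side was required against each line, 15 members lay above and 26 below, and with a limit of 1 it was 5 and 16. Shares of the other autosomes' genes are not given for these settings. The groups of 23 and 43 are sorted by the contrast that chose the chromosome, and their values are given as a description.

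The 23 members above had shifts from 1.04 to 2.40, with a median of 1.23. Of these, 18 still had a maternal share within 0.1 of their window, and the median difference was 0.71 for the maternal and 1.64 for the paternal allele. Tnfaip3 (chr10:19000910-19015657), which encodes the NF-kappaB inhibitor A20, was at 152 and 147 TPM in Abl.2, 20.6 and 21.6 in Abl.3, and 36.3 and 33.4 in Abl.4. Both libraries of Abl.2 stood far above the rest, with a shift of 2.40 (SE 0.07), or 5.27-fold. Its share of 0.317 was close to that of its window, and both alleles were higher, the maternal by 2.04 and the paternal by 2.65.

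Sgk1, a kinase induced by serum and glucocorticoids, was at 354 and 352 TPM in Abl.2, 59.4 and 55.2 in Abl.3, and 120 and 107 in Abl.4, a shift of 2.09. Fbxo30, a substrate receptor of a ubiquitin ligase, was at 44.0 and 59.8 TPM in Abl.2, 11.6 and 11.5 in Abl.3, and 17.1 and 19.6 in Abl.4, a shift of 1.73. Cry1, a repressor of the circadian clock, was at 57.0 and 53 TPM in Abl.2, 13.7 and 13.4 in Abl.3, and 23.8 and 19.9 in Abl.4, a shift of 1.60. Akap12 was at 170 and 175 TPM in Abl.2 and between 51.1 and 67.6 in the other 4 libraries, a shift of 1.54. In these 4 genes the libraries of Abl.2 were above all others, and Abl.4 was above Abl.3. Tle6, a co-repressor of the Groucho family, had a shift of 1.69 but does not belong to the group. Its Abl.2 libraries (57.9 and 62.7 TPM) overlapped those of Abl.4 (60.4 and 54.4), and only Abl.3 was low, at 8.35 and 2.86.

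The 43 members below had shifts from -2.19 to 0.03, with a median of -0.23. The lowest was Glipr1, named after its values were seen, with mean levels of 1.33 TPM (Abl.2), 27.0 (Abl.3) and 2.91 (Abl.4), and by summed allelic counts its shift was -0.52. Their median difference was -0.67 for the maternal and 0.10 for the paternal allele, and 27 had a share within 0.1 of their window. Of 66 members with abundance from 70 to 80 Mb, 16 (24.2%) lay below, and of 88 from 80 to 90 Mb, 2 (2.27%). Of windows with fewer members, 30 to 40 Mb had 4 of 15 below (26.7%), 110 to 120 Mb 4 of 19 (21.1%), 20 to 30 Mb 3 of 16 (18.8%) and 10 to 20 Mb 3 of 18 (16.7%). Members above made up 4 of 22 in the first 10 Mb (18.2%), 3 of 18 from 10 to 20 Mb (16.7%), 4 of 66 from 70 to 80 Mb (6.06%) and 8 of 88 from 80 to 90 Mb (9.09%). No test was made of these differences.

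**Figure D4:**
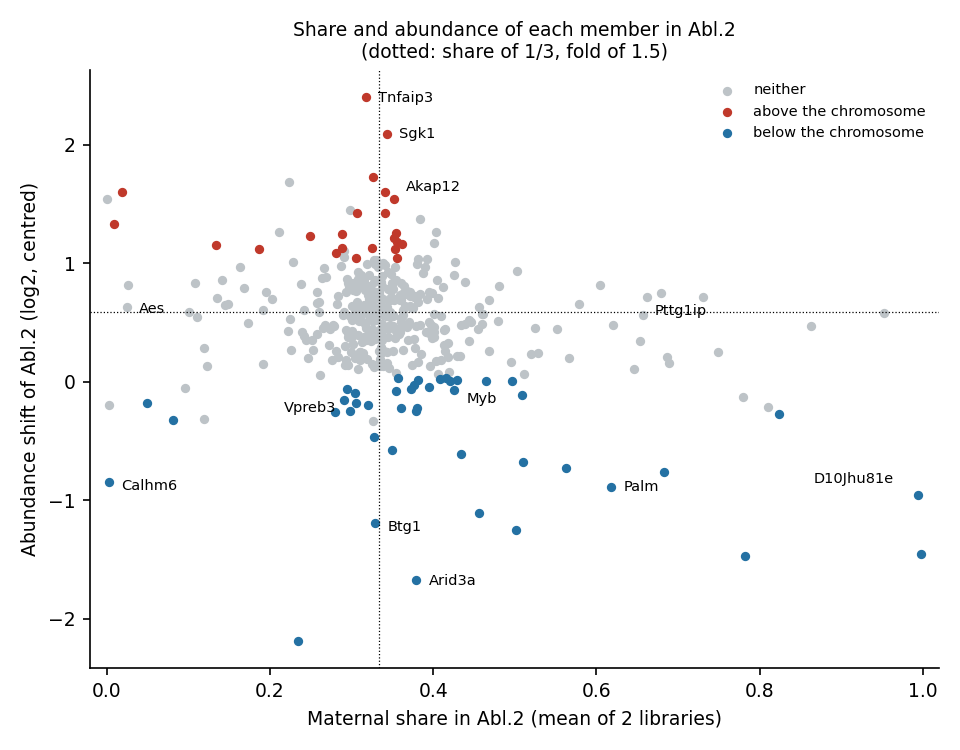
Maternal share in Abl.2 (x axis, mean of 2 libraries) against the abundance shift of Abl.2 (y axis, log2 scale, centred on the other autosomes) for 409 members, with dotted lines at a share of 0.333 and a 1.5-fold level. Most members lie around the crossing of the lines, Tnfaip3 and Sgk1 lie above it at shares of 0.317 and 0.343, and D10Jhu81e and Calhm6 lie at opposite ends of the share axis with shifts of -0.96 and -0.84.

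Btg1, an inhibitor of proliferation that is common in resting lymphocytes, was at 25.2 and 28.0 TPM in Abl.2, 44.4 and 49.5 in Abl.3, and 70.6 and 88.6 in Abl.4. The libraries of Abl.2 were below all others, with a shift of -1.19. The mean share of Btg1 in Abl.2, 0.329, was near that of the chromosome. It averages 0.367 and 0.291, whose 95% Wilson intervals (0.341 to 0.394 and 0.269 to 0.313) did not overlap. The maternal output of Btg1 differed by -1.60 and its paternal by -0.84, so that neither allele was higher in Abl.2. Palm, a lipid-anchored membrane protein, was at 44.1 and 38 TPM in Abl.2, 97.8 and 89.6 in Abl.3, and 64.3 and 57.4 in Abl.4, with shares of 0.618, 0.533 and 0.572. Plpp2, a lipid phosphate phosphatase, was at 27.4 and 24.4 TPM in Abl.2, 40.0 and 41.9 in Abl.3, and 45.4 and 48.7 in Abl.4. Its share was 0.683 in Abl.2 against 0.338 and 0.525, and its paternal output differed by -1.67 where the maternal differed by -0.17. Csrp2, a LIM-domain protein, was at 38.3 and 32.8 TPM in Abl.2 and 38.7 to 67.1 in the others, but it had few allelic counts, and its shift was -0.61 by TPM and -0.34 by summed allelic counts.

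A pair of members had nearly no counts of one allele in Abl.2, while both alleles were counted in the other lines. D10Jhu81e (chr10:78162066-78169782), which encodes a mitochondrial protein of the glutamine amidotransferase-like family, had 9 paternal counts of 1786 and 15 of 2358 in Abl.2, shares of 0.995 and 0.994 (95% Wilson intervals 0.990 to 0.997 and 0.990 to 0.996). In Abl.3 the shares were 0.492 and 0.459, and in Abl.4 they were 0.445 and 0.454. Abundance was 40.9 and 43.1 TPM in Abl.2, 80.8 and 81.4 in Abl.3, and 88.7 and 75 in Abl.4, or 0.514-fold, and the maternal output differed by 0.07. Both libraries of Abl.2 were below the other 4 in abundance while the maternal output was near that of the other lines.

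Calhm6 (chr10:34126067-34127984), a member of the calcium homeostasis modulator family, was the reverse. It had 0 maternal counts of 215 and 1 of 210 in Abl.2, and 0 of 215 allows a share of up to 0.0140. In Abl.3 the shares were 0.341 and 0.371, and in Abl.4 they were 0.293 and 0.309. Abundance was 14.4 and 15.2 TPM in Abl.2, 28.1 and 28.8 in Abl.3, and 27.3 and 24.0 in Abl.4, a shift of -0.84, and the paternal output differed by -0.35. In both genes the 2 libraries of Abl.2 did not overlap the other 4 in share or in abundance. Intervals and limits take in counting error alone, as the kit carries no molecular identifiers. A further gene of this kind was Ulbp1, a ligand of a natural killer receptor, with a share of 0.0810 in Abl.2 and 0.640 in Abl.4, which has near-identical relatives and is uncertain.

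Another 21 of the members below had a share within 0.1 of their window and a shift within 0.3 of 0, so their alleles were divided like the chromosome's while the total was like that of the other lines. Vpreb3, which binds immunoglobulin chains in precursor B cells, was the most abundant after Mif in Abl.2 and Abl.3, and the most abundant in Abl.4. It was at 6143 and 6024 TPM in Abl.2, 5599 and 5454 in Abl.3, and 7519 and 7374 in Abl.4. The level of Abl.2 lay between those of the other lines, with shares of 0.304, 0.445 and 0.460 and a shift of -0.10. Mif, a cytokine that inhibits macrophage migration, was at 7095 and 6712 TPM in Abl.2, between 6111 and 6960 in the others, a shift of 0.03 by TPM but -0.31 by summed allelic counts, and its share was 0.357 against 0.446 and 0.480. Mif has processed copies elsewhere in the genome, Vpreb3 overlaps another gene, and whether counting used strand was not stated, so reads shared with those cannot be told apart. Others of the 21 were Shmt2, an enzyme of one-carbon metabolism (shift -0.24), Pfkl, a phosphofructokinase (-0.25), Prim1, the catalytic subunit of primase (-0.03), Ifngr1, a chain of the interferon-gamma receptor (-0.20), and Dazap1, an RNA-binding protein (0.03). These 5 were chosen after their values were seen.

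**Figure D5:**
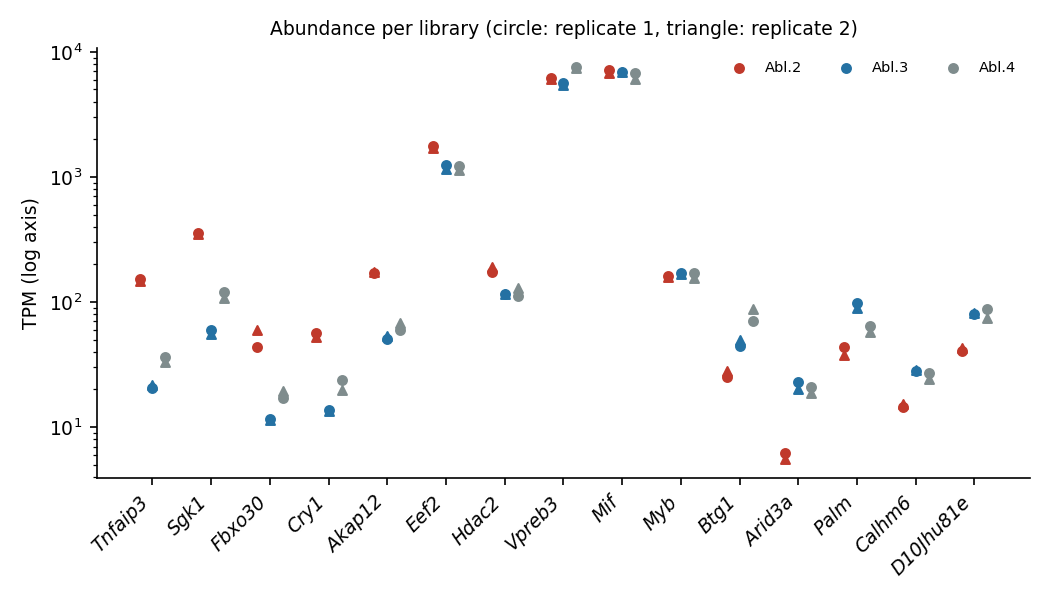
Abundance in TPM on a log axis (y axis) of 15 members (x axis) in each library of the 3 lines, circles for replicate 1 and triangles for replicate 2. Tnfaip3, Sgk1, Fbxo30, Cry1 and Akap12 are higher in both libraries of Abl.2 than in all others, Vpreb3, Mif and Myb lie at the level of the other lines, and Btg1, Arid3a, Palm, Calhm6 and D10Jhu81e are lower.

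A run of neighbours was seen in the window from 70 to 80 Mb after the values were known. From Fstl3 to Cnn2, over 219 kb, 7 of 12 members lay below the chromosome and 5 lay on neither side, where 24.2% of the window and 10.5% of all members lay below. Fstl3, a binder of activin, had a shift of -0.24, and Prss57 and Prtn3, serine proteases of myeloid granules, had -1.25 and -1.11 at mean levels of 0.55 and 0.77 TPM in Abl.2. Palm was at -0.89, Plppr3 at -0.47, Arid3a at -1.68 and Cnn2, an actin-binding calponin, at -0.15. Between them, Ptbp1, a splicing repressor, was at 0.56 by TPM but at -0.30 by summed allelic counts, Med16 at 0.86, R3hdm4 at 0.37, Wdr18 at 0.86 and Tmem259 at 0.51. Members below and members on neither side by TPM were interspersed within the run. Arid3a (Bright), an activator of immunoglobulin heavy chain transcription, was at 6.18 and 5.59 TPM in Abl.2, 23.2 and 20.1 in Abl.3, and 20.8 and 18.9 in Abl.4, while its share of 0.379 in Abl.2 was near that of the window.

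Among members with at least 200 counts in each library, the highest shares against the window, after D10Jhu81e, were those of Agpat3, Pdxk and Chst3. Agpat3, an acyltransferase of phospholipid synthesis, had shares of 0.863, 0.494 and 0.783 in the order Abl.2, Abl.3, Abl.4. Pdxk, pyridoxal kinase, was at 0.730, 0.767 and 0.730, and Chst3, a chondroitin sulfotransferase, at 0.679, 0.806 and 0.797. Maternal bias of these genes was thus shared by Abl.4, and in Pdxk and Chst3 by all lines. The lowest, after Calhm6, were Aes, E030030I06Rik and Icosl. Aes, a Groucho-family co-repressor, was at 0.024, 0.0078 and 0.0019, E030030I06Rik at 0.048, 0.193 and 0.196, and Icosl, a costimulatory ligand, at 0.096, 0.271 and 0.396. Shares of at most 0.1 or at least 0.9 were found in 16 members of Abl.2, or 3.71%, against 5.62% on the other autosomes. They were found in 15 members of Abl.3 and 12 of Abl.4, for which no share on the other autosomes is given. Aes, Nhsl1, Amd2 and Ank3 were at most 0.1 in all lines, and Ulbp1, Calhm6 and D10Jhu81e were past these limits in Abl.2 with shares of 0.3 to 0.7 in both others. The last 7 names come from counts and were chosen after their values were seen.

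Gene lists for this tissue showed how groups of members stood in the profile. For each, the shift's median is read beside the chromosome's 0.54. The B cell and blood cell regulators had 19 members, with median shares of 0.329, 0.472 and 0.490 in the order Abl.2, Abl.3, Abl.4. Their shifts had a median of 0.63 but the widest range of the 5 lists, from -1.68 to 2.40, and 10 of 19 were within 0.5 of the chromosome, as were 80.2% of all 409 members. Tnfaip3 and Foxo3, a forkhead factor at 23.3 TPM in Abl.2 against 7.31 and 13.5, lay above. Vpreb3, Ifngr1, Btg1, Myb and Arid3a lay below. Both sides are taken against the mean of Abl.3 and Abl.4 and are not given for each line alone. Tcf3, the E2A factor that B cell development needs, was at 912, 528 and 563 TPM with a shift of 0.72.

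The shifts of the other lists were less widely spread. The cell cycle, replication and p53 list had 19 members and a median shift of 0.51, and 17 were within 0.5, a count to be read, like those of the next 3 lists, beside the 80.2% of all members. Cdk1, the mitotic kinase, was at 742, 507 and 518 TPM in Abl.2, Abl.3 and Abl.4, and Cenpw and Prim1 lay below. All 10 members of the ribosome and translation list were within 0.5, with a median of 0.51 and a range from 0.22 to 0.90. Eef2 was at 1754 and 1702 TPM in Abl.2, 1241 and 1167 in Abl.3, and 1217 and 1130 in Abl.4, yet its shift was 0.52 by TPM and 0.06 by summed allelic counts. Rps12, a protein of the small ribosomal subunit, had a shift of 0.80, and Rps12, Rps26, Rpl41 and Naca have processed copies, so their values are uncertain. Of 12 respiratory chain and mitochondrial members, 11 were within 0.5, with a median of 0.57. The exception, Hk1 (hexokinase 1), was at -0.31 and had a share of 0.120 in Abl.2 against 0.576 and 0.407. Its mean abundance was 38.3 TPM in Abl.2, 23.9 in Abl.3 and 92.3 in Abl.4. Abl.2 thus lay between the other lines, and Hk1 does not belong to the members below. Of 16 signalling and RNA processing genes of the gene-dense centre, 15 were within 0.5, with a median of 0.65, and Cnn2 lay below.

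The contrast of Abl.3 with Abl.4 leaves out the level of Abl.2 and was tested. The spread behind its p-values was estimated from all 6 libraries together, so the libraries of Abl.2 bear on which members are called. In the quasi-likelihood fit of edgeR, with p adjusted by Benjamini-Hochberg over 8702 genes, 183 of 431 members (42.5%) had an adjusted p below 0.05 in Abl.3, where 45.1% of all genes did, and 174 (40.4%) in Abl.4, where 39.9% did. Of the 431, 92 (21.3%) were called with more maternal counts in Abl.3, where 22.5% of all genes were, and 86 (19.95%) in Abl.4, where 19.2% were. The allelic ratio differed between the lines in 59 members (13.7%), against 16.5% of all genes, with a higher maternal part in Abl.3 in 35 (8.12%), against 8.53% of all genes, and a lower one in 24 (5.57%), against 7.93%. The 8702 genes include 222 of the X chromosome, of which 100% were called in Abl.3, 99.5% in Abl.4 and 100% for the difference. Over the 8480 autosomal genes of the same fit, 43.7% were called in Abl.3 (20.4% with more maternal counts) and 38.3% in Abl.4 (19.7%), and 14.3% for the difference, 6.13% higher in Abl.3 and 8.14% lower.

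Myb (chr10:21124935-21160984), a transcription factor of blood progenitors, had an allelic difference between Abl.3 and Abl.4 without a call in abundance. Its share was 0.142 and 0.124 in Abl.3 and 0.576 and 0.585 in Abl.4, and 0.418 and 0.433 in Abl.2. The libraries of the 3 lines did not overlap. The log2 allelic difference between Abl.3 and Abl.4 was -3.17 (SE 0.15, edgeR with Benjamini-Hochberg adjustment, adjusted p = 6.58e-08). Abundance was 161 and 160 TPM in Abl.2, 172 and 166 in Abl.3, and 172 and 155 in Abl.4, and differed between Abl.3 and Abl.4 by 0.05 (SE 0.08, adjusted p = 0.63, limma with Benjamini-Hochberg adjustment). Myb overlaps another gene.

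Sgk1 (chr10:21882184-21999903) was almost wholly maternal in Abl.3, with shares of 0.988 and 1, against 0.397 and 0.404 in Abl.4 and 0.342 and 0.344 in Abl.2. The allelic difference was 7.79 (SE 0.35, edgeR with Benjamini-Hochberg adjustment, adjusted p = 4.89e-08), and without replicate 1 of Abl.3, which leaves a library with 0 paternal counts of 565, the fitted value was 12.96. The abundance difference, Abl.3 less Abl.4, was -0.98 (SE 0.09, limma with Benjamini-Hochberg adjustment, adjusted p = 0.000403). Pttg1ip (chr10:77581720-77598732), a binding partner of securin, had shares of 0.706 and 0.712 in Abl.3, 0.439 and 0.457 in Abl.4, and 0.643 and 0.670 in Abl.2. Its difference was 1.58 (SE 0.07, edgeR with Benjamini-Hochberg adjustment, adjusted p = 2.91e-08). In Abl.2 its maternal share was above 0.5, away from the rest of the chromosome, and nearer to that of Abl.3.

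Abundance differed between Abl.3 and Abl.4 in 155 of 409 members (37.9%) in the limma fit to log2(TPM + 1), adjusted by Benjamini-Hochberg, against 38.1% of 11003 genes. It was higher in Abl.3 in 39 members (9.54%), against 11.3% of all genes, and lower in 116 (28.4%), against 26.8%, around a median difference of -0.16 for the members and -0.15 for all genes tested. After quantile normalisation 139 were called, 63 higher and 76 lower, so the split between directions depends on the scaling. With the replicate number as a block 191 were called, 51 higher and 140 lower. Shares of all genes are given for the main fit alone, so counts under other settings have no background beside them. Without replicate 1 of Abl.3 the count was 90 and without replicate 2 it was 98. Aes was at 33.3 and 28.9 TPM in Abl.3, 143 and 147 in Abl.4, and 109 and 104 in Abl.2. Its difference was -2.19 (SE 0.09, limma with Benjamini-Hochberg adjustment, adjusted p = 2.54e-05), with nearly all counts paternal in every line. Ipmk, an inositol phosphate kinase, was at 77.2 and 83.2 TPM in Abl.3, 363 and 315 in Abl.4, and 236 and 245 in Abl.2, a difference of -2.06 (SE 0.09, limma with Benjamini-Hochberg adjustment, adjusted p = 2.85e-05).

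Arid5b, a chromatin-binding factor, was at 0.88 and 0.77 TPM in Abl.3, 10.5 and 10.8 in Abl.4, and 9.53 and 10.9 in Abl.2. The difference was -2.68 (SE 0.14, limma with Benjamini-Hochberg adjustment, adjusted p = 4.41e-05), and the maternal share was 0.966 in Abl.3 and 0.490 in Abl.4, with 0.404 in Abl.2. Its allelic ratio also differed (5.26 on the log2 scale, edgeR with Benjamini-Hochberg adjustment, adjusted p = 8.26e-05). Without replicate 1 of Abl.3 this value was 3.80, and without replicate 2, which leaves a library with 102 of 102 counts maternal, the fitted value was 9.87. Of 55 members with an allelic difference and abundance tested, 34 (61.8%) also had an abundance difference, against 121 of the other 354 (34.2%). No test was made of this overlap.

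In the gene lists, abundance differed between Abl.3 and Abl.4 by limma with Benjamini-Hochberg adjustment in 10 of 19 B cell and blood cell regulators, higher in Abl.3 in 2 and lower in 8, where 11.3% of all genes were called higher and 26.8% lower. It differed in 10 of 19 of the cell cycle list (3 higher and 7 lower), in 6 of 12 mitochondrial members (4 and 2) and in 10 of 16 of the gene-dense centre (4 and 6), where 38.1% of all genes were called. After quantile normalisation the counts higher and lower were 2 and 8 for the blood cell regulators, 4 and 4 for the cell cycle list, 3 and 2 for the mitochondrial members and 4 and 4 for the centre. The share of all genes called under that scaling is not given, so these counts have no background beside them. Cdc34, a ubiquitin-conjugating enzyme, was higher in Abl.3 by 0.98 (adjusted p = 0.000967, limma with Benjamini-Hochberg adjustment), and Fyn, a kinase of the Src family, by 0.94, both named after their values were seen. In the ribosome and translation list limma called 0 of 10 after adjustment and 2 at an unadjusted p under 0.05. The allelic ratio of its members was called in 0 by edgeR, 0 at an unadjusted p under 0.05 and 0 by DESeq2. It differed by edgeR in 5 blood cell regulators, in Cdk17 and Gadd45b of the cell cycle list, in Hk1 and in Cnn2, where 16.5% of all genes and 14.3% of autosomal genes were called. DESeq2 called 4 of the blood cell regulators, 1 of the cell cycle list, Hk1 and Cnn2.

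The authors' deposited table of allelic fractions gives an interval per gene with replicates averaged. In the authors' deposited table the interval held 0.5 for 64 of 426 members in Abl.2, for 318 of 412 in Abl.3 and for 324 of 416 in Abl.4. It held 0.333 for 281, 86 and 108 of them in the same order, with median interval widths of 0.12, 0.18 and 0.20 in that table. These widths bear on how many intervals hold a value. Shares over all genes of that table are not given, so the counts have no background beside them. Those of Abl.2 also belong to the contrast that chose the chromosome, and nothing is read from them.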

How the data were processed

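RNA-seq was available for 3 clonal lines of B cells with 2 library preparation replicates each, grouped by the line in the sample titles. Per the file headers, the allele table holds counts of the maternal and paternal allele that the authors took at SNP positions within each gene. The authors obtained the TPM values with DESeq2, per the header of that table. The third deposited table holds the authors' maternal fraction per line with confidence limits, replicates averaged. STAR 2.5.4a, SAMtools, GATK and DESeq2, and the builds GRCm38, mm10 and GRCh37, are named in the submitters' processing notes without a role. Whether counting used strand, and whether a read over several SNPs was counted once, is not given in the sources used here.

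A minimum of 20 allelic counts per gene was set for every one of the 6 libraries, and a mean of at least 1 TPM for abundance. Starts of all 431 members equal those of GENCODE M21 (GRCm38). Allelic counts were fitted with edgeR 4.0.16 in R 4.3.3 (quasi-likelihood, an intercept per library, an allele effect per line) over 8702 autosomal and X genes. Log2(TPM + 1) was fitted with limma 3.58.1 (trend) over 11003 genes, and fold changes on this scale understate the change of low genes. P-values were adjusted by Benjamini-Hochberg over every gene fitted, at a threshold of 0.05. A TPM shift was centred on the median of autosomes other than 4 and 10, the chromosomes that stand apart in Abl.2. Allele output is log2(counts + 0.5) after scaling to the counts on those autosomes. The fits were tested on simulated data.

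Named genes were, among members with a mean log2(TPM + 1) of 4 or more, the 6 farthest above and 6 farthest below the chromosome's shift. To these were added, at 200 counts or more per library, the 4 highest and 4 lowest shares against the window, the 3 smallest p of each comparison of Abl.3 with Abl.4, the member with the most counts in each window, and up to 4 members per gene list. Members, lists and rules were chosen with earlier results of these data known. Alternatives were other count minimums, window sizes, summaries, pseudocounts, scalings, DESeq2 1.42.0 on allelic counts, single reference lines, and each replicate left out.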

Additional observations from a re-analysis of the deposited data

Results flagged for a closer look

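In 3 members the balance of the alleles differed between Abl.3 and Abl.4 by the test of the difference itself (edgeR with Benjamini-Hochberg adjustment). The log2 difference in the maternal to paternal ratio, Abl.3 less Abl.4, was 1.58 for Pttg1ip, 7.79 for Sgk1 and -3.17 for Myb. In each gene both libraries of one line lay on one side of both libraries of the other. Over all alternatives tried, the adjusted p stayed at most at 6.45e-06 for Pttg1ip, 5.59e-07 for Sgk1 and 6.73e-06 for Myb. The abundance difference, Abl.3 less Abl.4, was -0.83 for Pttg1ip, -0.98 for Sgk1 and 0.05 for Myb (limma with Benjamini-Hochberg adjustment, adjusted p = 0.000532, 0.000403 and 0.63).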

How the results depend on the processing

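Of 124 alternative values of the main results, 83 stayed within the spread or the threshold, 35 moved beyond the spread and 6 were lower counts. Shares and counts have no direction here. Only the abundance shifts could reverse, and 0 of them did. For Abl.2, gene medians gave a share of 0.337 over the chromosome, 0.312 in the lowest and 0.367 in the highest window. Without the gene with the most counts in each window the values were 0.351, 0.302 and 0.391. Windows of 5 Mb gave 0.279 and 0.395, and windows of 20 Mb 0.322 and 0.360. The share of Abl.3 without those genes was 0.513, and that of Abl.4 was 0.508, or 0.503 by gene medians. The abundance shift of the chromosome was 0.56 with a pseudocount of 0.1, 0.56 without a filter and 0.56 without centring, and 0.52 and 0.51 against Abl.3 and Abl.4 alone. Its highest window was at 0.71, 0.71, 0.70 and 0.70 in the first 3 of these settings and by summed allelic counts, and at 0.76 against Abl.3. The lowest was at 0.34 by summed allelic counts and at 0.22 against Abl.4. With a limit of 1 instead of 0.5, 5 members lay above and 16 below. When the same side was required against each line, 15 and 26 did. By summed allelic counts, an alternative chosen after seeing the data, it was 34 and 46, of which 20 and 33 were shared. In each case the cause was not tested. Leaving out each replicate gave shifts of 0.52 to 0.55 for the chromosome, 0.31 to 0.41 for the lowest and 0.68 to 0.72 for the highest window, and 90 to 145 abundance differences between Abl.3 and Abl.4. Replicate 1 and 2 are numbers of library preparations and are not stated to pair samples. Deviations with the same number correlated at 0.104 to 0.187 across genes in abundance and at -0.037 to 0.029 in allele ratio. With the number as a replicate block, the allelic difference was called in 55 members and not 59, imbalance in 178 and 164, and abundance in 191 and not 155. Shares of all genes called are given for the main fits alone, so counts under the alternatives have no background beside them. DESeq2 called 52 allelic differences. Depth limits members near the minimum of 20 counts, and with 1 clone per line no difference can be assigned to more than the clone.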

Other observations

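The shift was also taken from summed allelic counts, which share libraries but not the length scaling of TPM. Over 409 members both measures correlated at r = 0.93 across genes, which are not independent replicates, with a median absolute difference of 0.08. They differed by more than 0.5 in 10 members: Plekhg1, Lrp11, Cited2, Smpd2, Ank3, Mmp11, Ptbp1, Uqcr11, Glipr1 and Atp5b. Atp5b, a subunit of ATP synthase, had a shift of 0.42 by TPM and -0.14 by allelic counts. All 23 members above and all 43 below lay on the same side of the chromosome's median by both measures.

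In 4 equal groups by abundance, the members of the lowest had a median shift of 0.45 and the next 3 had 0.63, 0.55 and 0.51. Members that did not follow the chromosome numbered 22, 18, 15 and 11 in the same order. Promoters held a median of 21.5 CG in 22 matched members above, 23 in 37 below and 24 in 297 others, so the groups' medians lay within a few CG of each other.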
